A study of Mus musculus with 9 samples.

Results

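Chemokine receptors are the surface proteins through which leukocytes sense chemokines and move along their gradients. The 8 receptor genes described here were the rows of the gene count table carrying the symbols Ccr1, Ccr2, Ccr3, Ccr7, Ccrl2, Cxcr2, Cxcr4 and Cx3cr1, each found once among 55471 genes. Libraries came from wild-type murine bone marrow cells grown into dendritic cells (DCs) with GM-CSF. Per the study's methods the donors were female C57BL/6 mice of 8 to 20 weeks. Cells were left unstimulated, activated with 100 ng/mL LPS, a bacterial cell wall component sensed by TLR4, or treated with 1000 U/mL IFN-β, an antiviral cytokine, each for 6 h. Each of the 3 groups had 3 libraries, lettered A, B and C. Total counts per library ran from 33425803 to 43735199.

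Chemokine receptors span the membrane several times and mostly signal through Gi proteins to phosphoinositide 3-kinase, Rac and the cytoskeleton, and arrestins and receptor kinases switch them off. Inflammatory receptors such as Ccr1 and Ccr2 bring precursors and immature DCs into tissue. On maturation, DCs classically exchange these for Ccr7, which guides them to lymph nodes. Atypical receptors such as Ccrl2 bind or present ligand without the usual signal.

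Grown with GM-CSF, such cultures hold DC-like and macrophage-like cells together. CPM values are counts scaled to library size with TMM, the trimmed mean of M values. Summed CPM of 10 DC marker genes was 5259 to 6318 in unstimulated DCs, 6905 to 7695 after LPS and 5828 to 6196 after IFN-β. Itgax, Cd74 and H2-Ab1 were high, while Cd209a lay between 0 and 16 counts per library and Flt3 between 68 and 178. Summed CPM of 6 monocyte or macrophage markers was 1523 to 1879 in unstimulated DCs, 2540.0 to 3114 after LPS and 2146 to 2473 after IFN-β. Neutrophil markers (10 genes) summed to 20.3 to 163 CPM and were highest in library A of every group, whereas eosinophil markers (6 genes) summed to 15.1 to 37.0 CPM and were highest in library B of every group. Of the neutrophil sum, Csf3r alone held 33.1 of 56.25 CPM in unstimulated library A and 137 of 163 CPM in LPS library A. Lists for mast cells or basophils, T or NK cells, and B cells each stayed at or below 4.15 CPM in all libraries, with Fcer1a, Mcpt4, Cd3e, Trac and Ms4a1 at or under 3 counts throughout. The T or NK marker that passed the filter, the kinase gene Lck, is given with the markers that moved. In bulk RNA, fewer cells of a type and less RNA per cell cannot be told apart.

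All 8 receptors passed the filter on low counts. Under LPS, 6 of the 8 changed: Ccrl2 and Ccr7 rose, and Ccr2, Cxcr4, Cxcr2 and Cx3cr1 fell (edgeR's quasi-likelihood test, adjusted p under 0.05 over 16260 genes). Among all genes tested, 68.2% changed under LPS, 32.8% upward and 35.4% downward. Under IFN-β, 4 of the 8 changed: Ccrl2, Ccr7 and Ccr1 rose and Cxcr2 fell, against 46.9% of all genes, 23.6% upward and 23.3% downward. For the 8 receptors the median size of the log2 change was 1.70 after LPS and 0.50 after IFN-β, beside 0.65 and 0.35 over all tested genes. Both comparisons used the same unstimulated libraries. When libraries were scaled by their totals alone, which shifted the all-gene log2 median by -0.58 (LPS) and -0.31 (IFN-β), the split was 2 higher and 5 lower after LPS, and 1 higher and 3 lower after IFN-β. In a fit with the replicate block (the letter as a term), IFN-β changed 6 receptors, 3 upward and 3 downward.

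**Figure D1:**
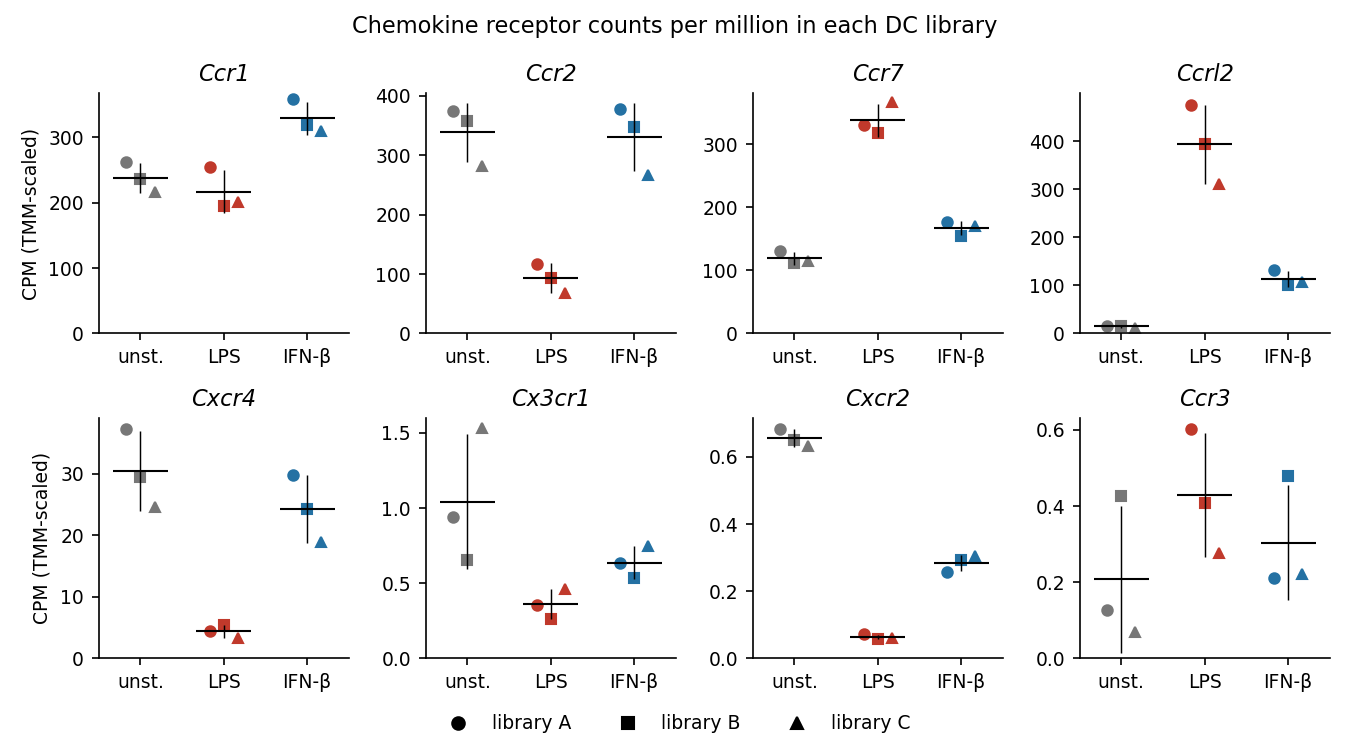
TMM-scaled CPM (vertical axes, from 0, each panel on its own scale) of the 8 receptors in unstimulated (unst.), LPS and IFN-β libraries. Each symbol is 1 library, horizontal lines are group means and vertical lines are ± 1 SD (n = 3). The LPS libraries of Ccr7 and Ccrl2 sit above, and those of Ccr2, Cxcr4, Cx3cr1 and Cxcr2 below, all libraries of both other groups.

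Ccr7 binds Ccl19 and Ccl21 and leads DCs along lymphatics (chromosome 11, 99144196 to 99155077, minus strand, GRCm38). Its CPM was 130, 112 and 115 in the unstimulated libraries (A, then B, then C, as in all values per library given here). After LPS it was 330, 317 and 368, and after IFN-β 176, 154 and 170. The 3 groups did not overlap, with IFN-β-treated DCs between the other groups. The log2 fold change was 1.51 ± 0.09 (SE) under LPS (adjusted p = 1.0e-07), or 2.84-fold, and 0.49 ± 0.09 under IFN-β (adjusted p = 9.9e-04). Within each letter the log2 ratio to the unstimulated library was 1.34 to 1.68 for LPS and 0.43 to 0.57 for IFN-β. Scaled by library totals alone, the IFN-β change was 0.18 (adjusted p = 0.071).

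Ccrl2, an atypical receptor that binds chemerin, changed more than any other of the 8 under both stimuli (chromosome 9, 111054486 to 111057519, minus strand, GRCm38). Unstimulated libraries held 16.1, 15.5 and 11.7 CPM. LPS-activated DCs held 477, 394 and 311 CPM, and IFN-β-treated DCs 133, 101 and 107 CPM. Again no library of one group reached another group's range. The log2 fold change was 4.77 ± 0.19 under LPS (adjusted p = 1.2e-08), or 27.2-fold, and 2.98 ± 0.18 under IFN-β (adjusted p = 1.4e-06), or 7.87-fold.

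The 250 bases before the RefSeq start (GRCm38.p6) are shown for Ccrl2, which rose under both stimuli, and for Cxcr4, which fell under LPS, because the pair moved in opposite directions after LPS. They lie at chr9:111057519-111057768 and chr1:128592300-128592549, both on the minus strand, and are written 5′ to 3′ toward the gene. Capitals mark matches to GGNNNTTCC, a κB-like motif, or GAAANNGAA, a core of the interferon-stimulated response element, on either strand.
Ccrl2: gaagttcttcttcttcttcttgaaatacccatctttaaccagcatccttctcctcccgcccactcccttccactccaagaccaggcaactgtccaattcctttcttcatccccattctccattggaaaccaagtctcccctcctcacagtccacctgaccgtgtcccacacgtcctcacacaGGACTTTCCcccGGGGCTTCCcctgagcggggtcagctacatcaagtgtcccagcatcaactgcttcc
Cxcr4: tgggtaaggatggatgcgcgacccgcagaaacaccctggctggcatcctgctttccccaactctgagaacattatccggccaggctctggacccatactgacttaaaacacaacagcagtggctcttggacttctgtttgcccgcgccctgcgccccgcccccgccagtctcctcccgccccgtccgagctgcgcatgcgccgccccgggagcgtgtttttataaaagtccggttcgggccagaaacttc
The Ccrl2 window holds a pair of κB-like matches, GGACTTTCC starting 68 bases and GGGGCTTCC starting 56 bases before the start, without overlap. RefSeq gives 2 further Ccrl2 starts, whose windows hold neither motif. The Cxcr4 window holds neither motif, nor do those of Ccr1, Cxcr2 and Cx3cr1. In the Ccr3 window GGAAATTCC begins 179 bases before the start, and in the Ccr2 window an interferon-type match, TTCTCTTTC on the gene's strand, begins 86 bases before it. Of 32851 RefSeq windows of this length, 15.7% hold the κB-like motif and 7.13% the interferon-type core. A match is a description of the letters and not a measured binding site. No window for Ccr7 was used.

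Ccr1, a receptor for Ccl3 and Ccl5 among others, rose under IFN-β (chromosome 9, 123962124 to 123968692, minus strand). Its CPM was 262, 236 and 216 in unstimulated DCs, 255, 195 and 202 after LPS, and 359, 319 and 310 after IFN-β. Unstimulated and LPS libraries overlapped, and all IFN-β libraries lay above both. The log2 fold change was -0.13 ± 0.11 under LPS (adjusted p = 0.32) and 0.47 ± 0.11 under IFN-β (adjusted p = 0.0067), or 1.38-fold. The LPS value depended on the scaling and on 1 library: it was -0.72 by library totals alone (adjusted p = 2.1e-05) and -0.26 without LPS library A (adjusted p = 0.041). The IFN-β value was 0.16 by library totals alone (adjusted p = 0.145) and 0.48 without the 3 B libraries (adjusted p = 0.062).

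Ccr2, the receptor for Ccl2 that releases monocytes from bone marrow, fell under LPS and was near its unstimulated level under IFN-β (chromosome 9, 124101950 to 124113557, plus strand). Unstimulated libraries held 375, 359 and 283 CPM, LPS libraries 118, 94.1 and 67.3, and IFN-β libraries 377, 348 and 268. Every LPS library lay below every other library, while unstimulated and IFN-β libraries overlapped. The log2 fold change was -1.87 ± 0.20 under LPS (adjusted p = 1.1e-05), a 3.64-fold lower level, and -0.03 ± 0.19 under IFN-β (adjusted p = 0.90). In each group library A was highest and library C lowest. Of 6709 100-base windows of Ccr2 exons, 0.79% also occur in another gene.

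Ccr3, which eosinophils use to sense eotaxins, was barely detected (chromosome 9, 124021972 to 124031689, plus strand). Its raw counts were 5, 19 and 3 without stimulus, 17, 14 and 9 after LPS, and 9, 18 and 8 after IFN-β. The groups overlapped, and the log2 fold change was 1.0 ± 0.60 under LPS (adjusted p = 0.16) and 0.52 ± 0.61 under IFN-β (adjusted p = 0.52). Without unstimulated library B the LPS value was 2.10 (adjusted p = 0.012) and the IFN-β value 1.62 (adjusted p = 0.062). Without IFN-β library B the IFN-β value was 0.046 (adjusted p = 0.965). That library also held the most eosinophil peroxidase (Epx) in its group, with 44, 137 and 13 Epx counts without stimulus, 45, 145 and 24 after LPS, and 51, 125 and 15 after IFN-β. The part of these markers in the Ccr3 values was not tested. Without the 3 B libraries Ccr3 no longer passed the filter on low counts.

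Cxcr2, the receptor for the neutrophil-attracting CXC chemokines, was low in all libraries (chromosome 1, 74153989 to 74161246, plus strand). Its raw counts were 27, 29 and 28 without stimulus, 2, 2 and 2 after LPS, and 11, 11 and 11 after IFN-β. The ordering of the groups was without overlap. Summed counts after LPS were 9.63% of the unstimulated level once library sizes were taken into account, with an exact 95% interval of 3.44% to 21.9% that covers counting error only. The fitted log2 fold change was -3.31 ± 0.32 under LPS (adjusted p = 4.2e-06) and -1.20 ± 0.23 under IFN-β (adjusted p = 0.0016). The neutrophil marker S100a9 varied by letter, with 239, 93 and 45 counts without stimulus, 163, 50 and 25 after LPS, and 217, 68 and 30 after IFN-β. Ngp, Ltf and Csf3r were also highest in A and lowest in C in each group. S100a8 and Camp were instead lowest in B without stimulus. The part of these markers in the Cxcr2 values was not tested.

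Cxcr4, the receptor for Cxcl12 that retains cells in bone marrow, fell under LPS (chromosome 1, 128588199 to 128592293, minus strand). Its CPM was 37.4, 29.4 and 24.6 in unstimulated DCs, 4.39, 5.39 and 3.32 after LPS, and 29.9, 24.3 and 18.8 after IFN-β. LPS libraries were below all others, and IFN-β libraries overlapped the unstimulated ones. The log2 fold change was -2.80 ± 0.23 under LPS (adjusted p = 1.2e-06), a 6.96-fold lower level. Under IFN-β it was -0.32 ± 0.20 (adjusted p = 0.21). All 3 letters pointed downward under IFN-β, with log2 ratios of -0.38 to -0.27, and under the replicate block the value was -0.33 ± 0.09 (adjusted p = 0.0060).

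Cx3cr1, the fractalkine receptor of monocytes and some macrophages and DCs, was low and fell under LPS (chromosome 9, 119901616 to 120069879, minus strand). Its raw counts were 37, 29 and 68 without stimulus, 10, 9 and 15 after LPS, and 27, 20 and 27 after IFN-β. After scaling, every LPS library was below every other library. The log2 fold change was -1.53 ± 0.37 under LPS (adjusted p = 0.0033) and -0.71 ± 0.33 under IFN-β (adjusted p = 0.098). Under the replicate block the IFN-β value was -0.68 ± 0.23 (adjusted p = 0.024). Without unstimulated library B it was -0.97 (adjusted p = 0.031), and without unstimulated library C it was -0.32 (adjusted p = 0.44). Of the 9 fits that left out 1 library, 1 called it. An exon of Cx3cr1 overlaps one of Gm33858 on the opposite strand by 78 bases, and the strand setting of the counting was not given in the sources used here.

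The direct contrast of the responses, IFN-β-treated against LPS-activated DCs, differed for 6 of the 8 receptors, 4 higher and 2 lower after IFN-β. Over all genes 49.1% differed, 25.8% upward and 23.3% downward. Cxcr4 was higher after IFN-β than after LPS by 2.48 ± 0.23 (adjusted p = 8.1e-06), Cxcr2 by 2.11 ± 0.36 (adjusted p = 6.8e-04) and Ccr2 by 1.83 ± 0.20 (adjusted p = 2.9e-05) on the log2 scale. Ccr1 was higher by 0.60 ± 0.11 (adjusted p = 0.0014). Ccrl2 was lower after IFN-β by a log2 difference of -1.79 ± 0.17 (adjusted p = 1.1e-05) and Ccr7 by -1.02 ± 0.09 (adjusted p = 4.7e-06). Cx3cr1 had a difference of 0.82 ± 0.39 (adjusted p = 0.10), which was 0.84 under the replicate block (adjusted p = 0.027), and Ccr3 of -0.49 ± 0.58 (adjusted p = 0.52). An exact two-sided permutation test of 3 libraries against 3 cannot go below p = 0.1, the value reached by every receptor called in each comparison.

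**Figure D2:**
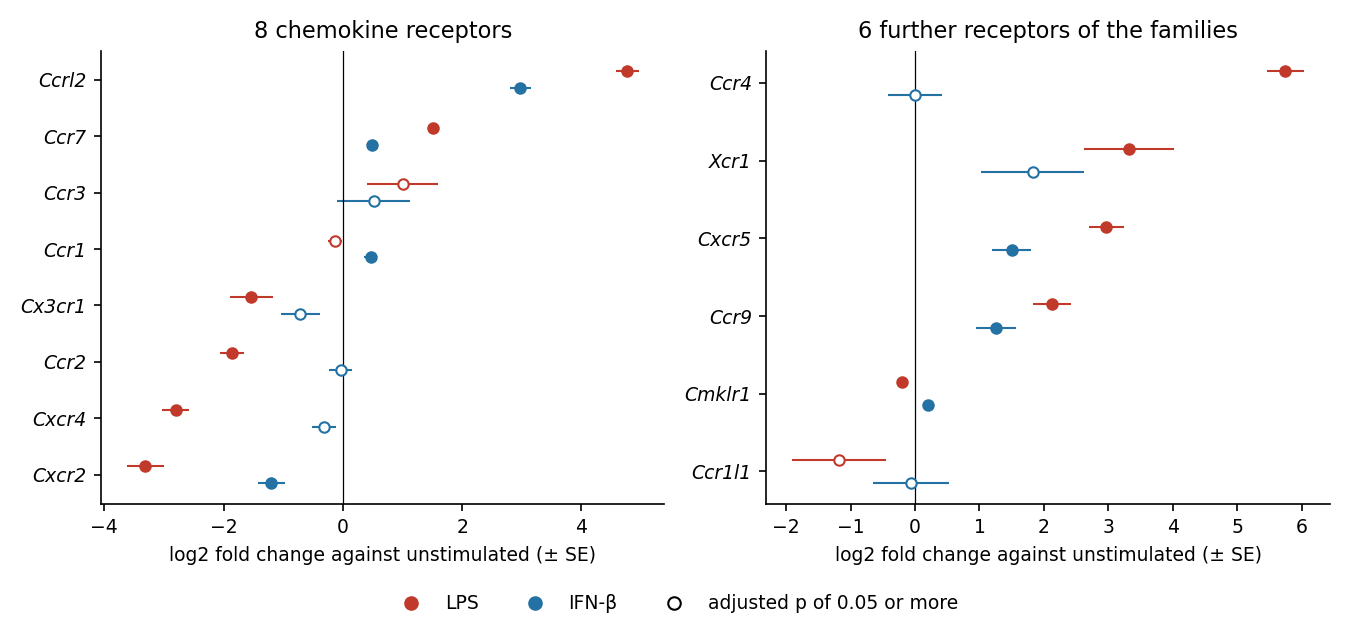
Log2 fold change against unstimulated DCs (horizontal axes, edgeR estimate ± SE) for the 8 receptors (left) and for the 6 other family members that passed the filter on low counts (right). Red marks LPS, blue marks IFN-β, and open symbols have an adjusted p of 0.05 or more. Ccrl2 at 4.77 and Ccr4 at 5.75 have the highest LPS values of the panels.

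Levels of different genes were compared as CPM per kilobase of exon. In unstimulated DCs the order was Ccr1 (84.1 ± 8.18, SD, n = 3), Ccr7 (60.2 ± 4.94), Ccr2 (50.1 ± 7.29), Cxcr4 (16.8 ± 3.57), Ccrl2 (5.56 ± 0.915), Cx3cr1 (0.231 ± 0.10), Cxcr2 (0.215 ± 0.00869) and Ccr3 (0.0633 ± 0.0588). Cx3cr1 and Cxcr2 overlapped there and every other pair of neighbours was apart. After LPS the order became Ccr7 (171 ± 13.2), Ccrl2 (152 ± 31.8), Ccr1 (76.6 ± 11.7), Ccr2 (13.8 ± 3.72), Cxcr4 (2.41 ± 0.573), Ccr3 (0.131 ± 0.050), Cx3cr1 (0.0797 ± 0.0221) and Cxcr2 (0.0208 ± 0.00213). Ccr7 overlapped with Ccrl2, and Ccr3 with Cx3cr1. After IFN-β Ccr1 led again (116 ± 9.11), before Ccr7 (84.3 ± 5.70), Ccr2 (49.0 ± 8.42), Ccrl2 (43.8 ± 6.46), Cxcr4 (13.5 ± 3.06), Cx3cr1 (0.141 ± 0.0238), Cxcr2 (0.0933 ± 0.00787) and Ccr3 (0.0927 ± 0.0463), with overlap between Ccr2 and Ccrl2 and between Cxcr2 and Ccr3. As a share of the summed level of the 8, Ccrl2 was 2.55% ± 0.225 in unstimulated DCs, 36.2% ± 4.79 after LPS and 14.2% ± 0.924 after IFN-β. The summed level was 217 ± 23.3, 416 ± 39.1 and 307 ± 28.2 in the same order, so a share can drop without a lower level. Ccr2 went from a share of 23.0% ± 1.55 to 3.28% ± 0.637 after LPS and 15.9% ± 1.90 after IFN-β. Its level was 50.1 in unstimulated and 49.0 in IFN-β-treated DCs. Ccr1 held 38.7% ± 0.410 in unstimulated and 37.9% ± 0.501 in IFN-β-treated DCs, with 18.4% ± 1.15 after LPS.

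**Figure D3:**
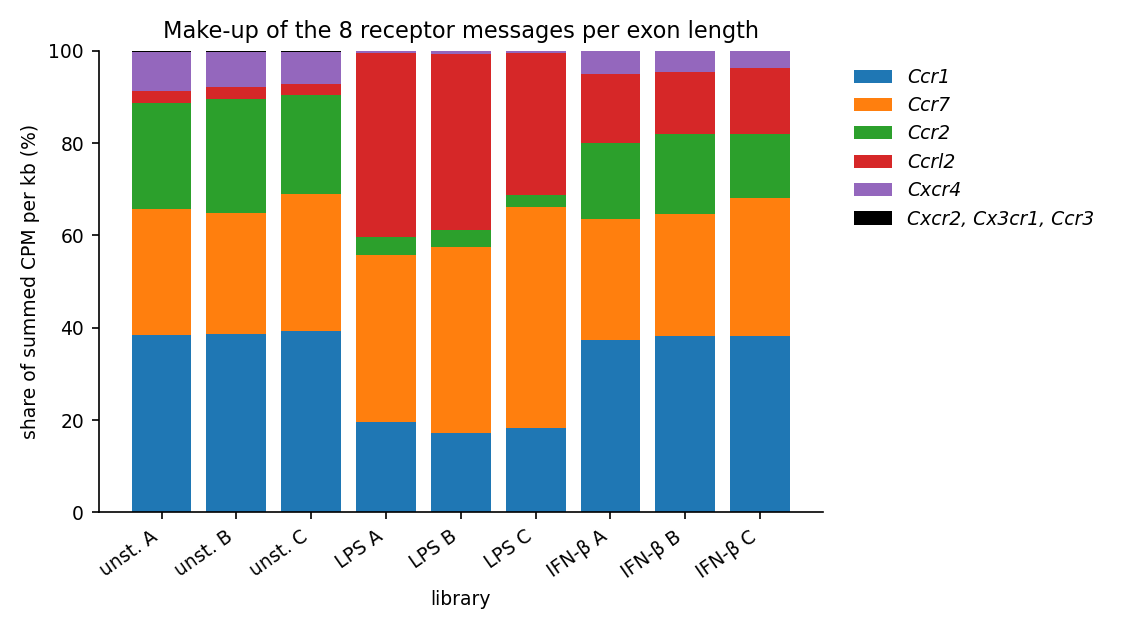
Share (%, vertical axis) of each receptor in the summed CPM per kilobase of the 8, for each of the 9 libraries (horizontal axis). Ccr7 and Ccrl2 fill most of the LPS bars, at mean shares of 41.5% and 36.2%, while Ccr1 is the largest share of unstimulated and IFN-β bars, at 38.7% and 37.9%.

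Of 17 further chemokine and atypical receptor genes, 6 passed the filter on low counts. Under LPS 4 of these 6 rose and 1 fell (4 and 2 by library totals alone and also under the replicate block), and 3 rose under IFN-β. Xcr1 and Cxcr5 passed the filter only through stimulated libraries, so the filter partly sets the balance toward rises. Without a filter 5 rose and 3 fell under LPS, and with at least 10 counts in every library 1 rose and 1 fell. Over all genes tested 68.2% changed under LPS and 46.9% under IFN-β, so the IFN-β count is near the all-gene share. Ccr4, which T cells use to sense Ccl17 and Ccl22, rose from 0.444 ± 0.193 CPM to 23.8 ± 4.63 after LPS (log2 fold change 5.75 ± 0.29, adjusted p = 4.1e-08) and was 0.432 ± 0.195 after IFN-β. Raw Ccr4 counts summed to 56, 2265 and 51 over the unstimulated, LPS and IFN-β libraries. Cxcr5, the follicle-homing receptor, rose by 2.97 ± 0.27 after LPS and 1.5 ± 0.30 after IFN-β (adjusted p = 3.1e-06 and 0.0021), and Ccr9, the gut-homing receptor, by 2.13 ± 0.30 and 1.26 ± 0.31 (adjusted p = 8.1e-05 and 0.0065). Of the Ccr9 exon windows of 100 bases, 18.9% also occur in another gene, so its reads are uncertain. Xcr1, a receptor of cross-presenting DCs, rose by 3.32 ± 0.69 under LPS (adjusted p = 0.0014) from 9 to 69 summed counts. Under IFN-β Xcr1 held 30 summed counts and was at 1.82 ± 0.79 (adjusted p = 0.083). That IFN-β value was called by DESeq2 (adjusted p = 0.042), without a filter (0.023) and without IFN-β library B (2.29, adjusted p = 0.021). The chemerin receptor Cmklr1 went from 295 ± 12.7 CPM to 257 ± 18.4 after LPS and 340 ± 16.5 after IFN-β (adjusted p = 0.035 and 0.045). The 6th, Ccr1l1, had 25, 8 and 22 summed counts (adjusted p = 0.17 and 0.94). Under LPS Ccr1l1 was at -1.18 ± 0.73, at -1.18 ± 0.49 under the replicate block (adjusted p = 0.043) and at -1.75 by library totals alone (adjusted p = 0.038). The other 11 genes did not pass the filter, among them Ccr6 with 29, 2 and 14 summed counts (unstimulated, LPS and IFN-β). Ackr3, the scavenging receptor for Cxcl12, held 27 counts in the unstimulated libraries together and 8 after IFN-β, with 0 after LPS, which allows up to 3 counts.

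Ligands of these receptors were examined in the same libraries, and 17 of 22 passed the filter. Under LPS 14 rose and 1 fell, and under IFN-β 8 rose (8 rose and 2 fell by library totals alone). Over all genes 32.8% rose and 35.4% fell under LPS, and 23.6% rose and 23.3% fell under IFN-β. Under the replicate block 13 changed after IFN-β, 12 of them upward. The Cxcr2 ligands Cxcl1, Cxcl2, Cxcl3 and Cxcl5 rose under LPS by 7.30 ± 0.17, 5.66 ± 0.23, 4.65 ± 0.32 and 6.17 ± 0.29 on the log2 scale, while Cxcr2 fell. Their IFN-β values were 0.08 to 0.51 (adjusted p = 0.051 to 0.73), and Ppbp was at 0.04 ± 0.25 under LPS. The Ccr2 ligands Ccl2, Ccl7 and Ccl12 rose by 2.99 ± 0.35, 4.39 ± 0.51 and 4.35 ± 0.31 under LPS and by 1.70 ± 0.33, 2.56 ± 0.48 and 4.42 ± 0.30 under IFN-β, the treatment in which Ccr2 had a log2 value of -0.03. Ccl8 rose from 5 summed counts to 32 and 49. Ligands of Ccr1 did not share 1 direction, since under LPS Ccl5 rose by 5.63 ± 0.16, Ccl3 by 4.03 ± 0.15 and Ccl9 by 0.87 ± 0.10, whereas Ccl6 fell by 0.42 ± 0.09. The CC chemokine Ccl4 rose by 3.34 ± 0.11 after LPS and 1.32 ± 0.10 after IFN-β. Cx3cl1 (fractalkine) rose by 0.60 ± 0.20 under LPS (adjusted p = 0.019), and Ccl24, an eotaxin, by 0.91 ± 0.26 (adjusted p = 0.0097). The Cx3cl1 libraries overlapped, at 20.5, 26.1 and 26.8 CPM without stimulus and 25.4, 42.4 and 43.8 after LPS. Mif, which can bind Cxcr4, was at -0.15 ± 0.14 under LPS and -0.03 ± 0.14 under IFN-β. Cxcl12 summed to 11, 24 and 9 counts, and the chemerin gene Rarres2 to 3, 1 and 5. The Ccr7 ligand genes Ccl19 and Ccl21a and the eotaxin Ccl11 had 0 counts in all 9 libraries.

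**Figure D4:**
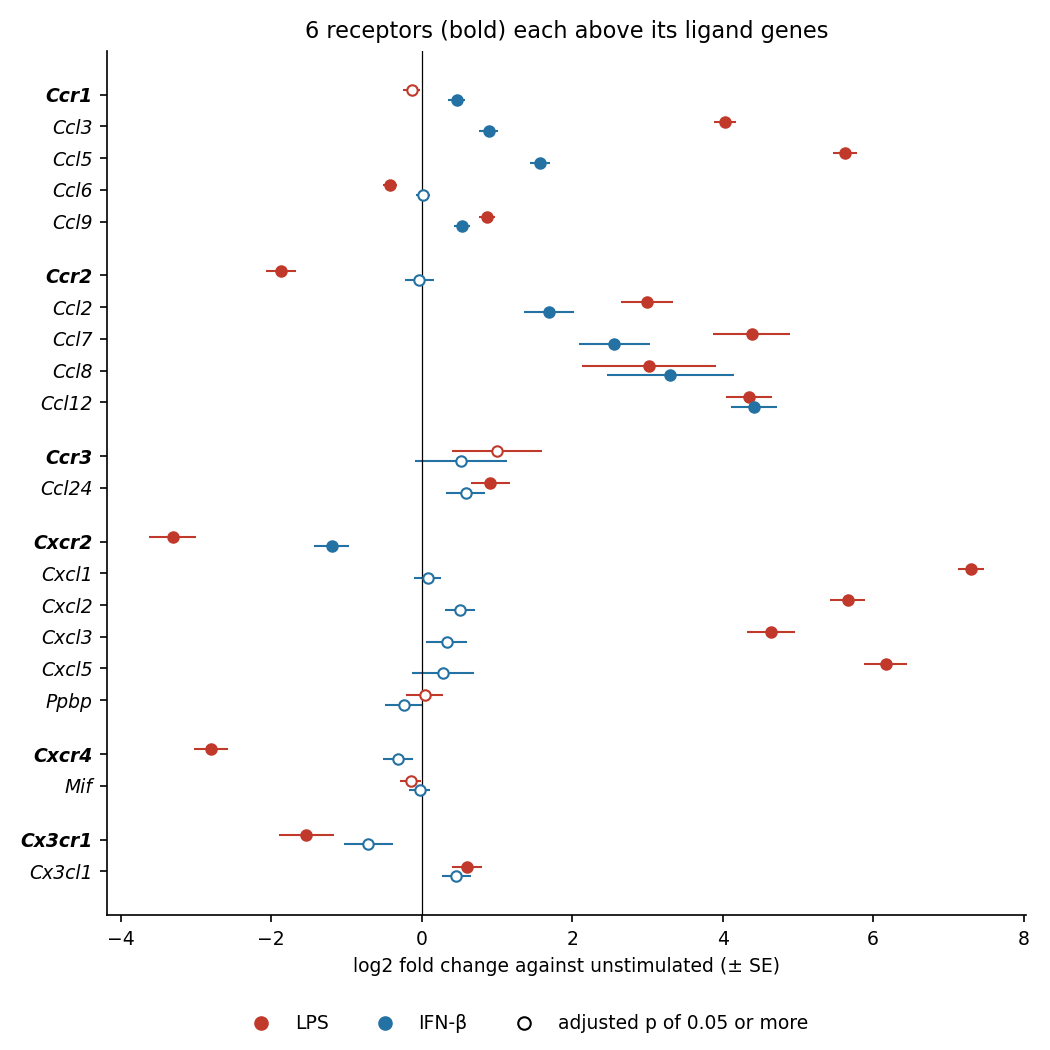
Log2 fold change against unstimulated DCs (horizontal axis, edgeR estimate ± SE) of 6 receptors (bold) and, under each, its ligand genes that passed the filter on low counts. Red marks LPS, blue marks IFN-β, and open symbols have an adjusted p of 0.05 or more. Under LPS Cxcr2 sits at -3.31 while Cxcl1 sits at 7.30.

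Genes that carry or stop the receptor signal were measured as a list of 25, all of which passed the filter. Under LPS 11 rose and 13 fell, and under IFN-β 13 rose and 8 fell, against 68.2% and 46.9% of all genes changed in either direction. Under the replicate block 13 rose and 11 fell after IFN-β. Scaled by library totals alone, the LPS split was 5 higher and 17 lower and the IFN-β split 6 and 12. The largest LPS rises were Rgs1 (2.54 ± 0.18) and Rgs16 (1.76 ± 0.11), which speed the return of Gi proteins to rest. The largest LPS falls were Arrb1 (-3.02 ± 0.18), an arrestin that uncouples receptors, and Grk5 (-1.96 ± 0.15), a receptor kinase. Arrb1 went from 364 ± 14.1 to 44.9 ± 13.1 CPM after LPS and 218 ± 14.9 after IFN-β, whereas Arrb2 was 129 ± 4.92, 111 ± 7.94 and 101 ± 5.56. Under IFN-β the same pair rose most, Rgs1 by 1.37 ± 0.18 and Rgs16 by 1.01 ± 0.11, while Grk5 at -1.05 ± 0.14 and Rgs18 at -0.87 ± 0.25 fell most.

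Ccr1, Ccr3 and Ccr2 lie near one another on chromosome 9, in a stretch of 435.1 kb from Ccr9 to Ccr2. It also holds Cxcr6, Xcr1, Ccr1l1, which lies between Ccr1 and Ccr3, and the unrelated genes Lztfl1 and Fyco1. Neighbours in this stretch did not move as a block. Under LPS Ccr9, Lztfl1, Fyco1 and Xcr1, which start at -290.3 to -106.7 kb from the Ccr1 start, rose by 2.13 ± 0.30, 2.13 ± 0.13, 0.99 ± 0.06 and 3.32 ± 0.69. Ccr2, which starts 133.3 kb beyond Ccr1, fell. Ccr1l1, which starts 9.7 kb beyond Ccr1, held 8 summed counts after LPS and was not called (-1.18 ± 0.73, adjusted p = 0.17). None of the 9 fits that left out 1 library called it. It was lower past the threshold under the replicate block and by library totals alone. Cxcr6 held 1, 16 and 23 summed counts and did not pass the filter. Ccrl2 and Cx3cr1 lie on the same chromosome but outside this stretch.

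**Figure D5:**
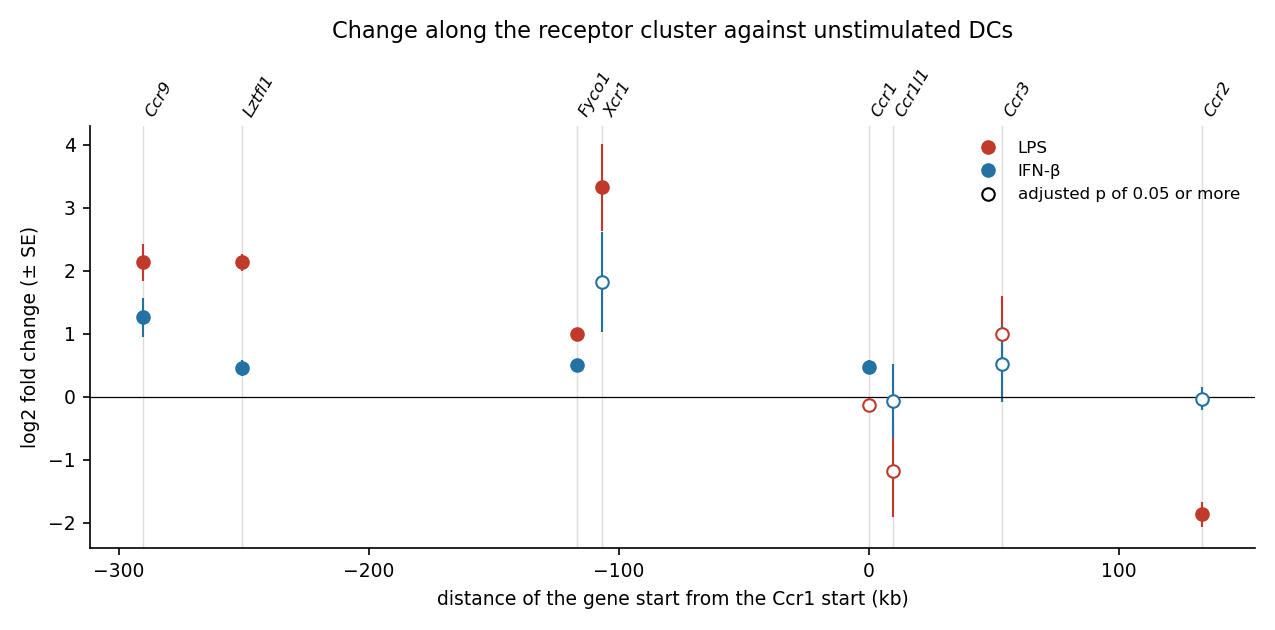
Log2 fold change against unstimulated DCs (vertical axis, ± SE) of the 8 tested genes of the chromosome 9 stretch, placed by the distance of each gene start from that of Ccr1 in kb (horizontal axis). Red marks LPS, blue marks IFN-β, and open symbols have an adjusted p of 0.05 or more. The 4 genes before Ccr1 lie at 0.99 or above under LPS, and Ccr2 at -1.87.

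The genes whose profile over the 9 libraries was closest to each receptor were listed by distance, a Euclidean distance of log2(CPM + 0.5) centred on the unstimulated mean, as a description. Closest to Ccrl2 were BC023105 (distance 0.442) and Ifih1, a sensor of viral RNA (0.757). Ifih1 had log2 changes of 4.32 after LPS and 2.93 after IFN-β. BC023105 had fitted log2 changes of 9.35 and 7.46 from a mean of 0.0169 CPM without stimulus, so the added 0.5 CPM sets much of its profile. Closest to Ccr7 were Krba1 (0.233) and Caml (0.288). Krba1 held 1.33 CPM without stimulus, so the added 0.5 CPM flattens its rise as well. Ccr1 was nearest to Fgd6 (0.230) and Sumf1 (0.255), and Ccr2 to Haus8 (0.385) and Jup, or plakoglobin (0.392). Cxcr4 was nearest to Neurl1b (0.502) and Bsn (0.513). After LPS Neurl1b held 0.548 CPM and Bsn 1.53 CPM, so the added 0.5 CPM flattens their fall. The fitted LPS change of Neurl1b was -3.71. For Cxcr2 (Gnpat, 0.153, and Aco1, 0.166), Cx3cr1 (Hgfac, 0.333, and Gas2, 0.345) and Ccr3 (Gm13136, 0.370, and Gm10053, 0.409) the added 0.5 CPM was of the size of the levels themselves and flattens the profile. Among the 8 receptors the nearest abundant pair was Ccr2 and Cxcr4, at 1.532, and the farthest pair was Ccrl2 and Cxcr4, at 13.990.

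Markers of DCs and of other cells were tested in the same libraries. For each list the all-gene shares are 32.8% higher and 35.4% lower under LPS, and 23.6% higher and 23.3% lower under IFN-β. Of the 9 tested DC markers 5 rose under LPS and 1 fell. Itgax, H2-Ab1, Cd74, Dpp4 and Zbtb46 rose by 0.22 to 0.73, and Irf4 was at -0.43 ± 0.10. After IFN-β 1 of these 9 rose, Dpp4 by 0.90 ± 0.11. Under LPS 5 of the 6 monocyte or macrophage markers rose and 1 fell. Cd14 rose by 3.21 ± 0.09, Fcgr1 by 2.20 ± 0.23, Mertk by 1.74 ± 0.10, Ly6c2 by 1.48 ± 0.19 and Adgre1 by 1.23 ± 0.23. Csf1r was at -0.97 ± 0.08. Ccr2 and Cx3cr1 fell in the same LPS libraries. Under IFN-β 3 of the 6 rose, Fcgr1 by 2.54 ± 0.23, Mertk by 1.14 ± 0.10 and Ly6c2 by 1.13 ± 0.19, while Cd14 fell by 0.27 ± 0.09 and Csf1r was at -0.06. Of the 6 tested neutrophil markers 2 rose under LPS, Csf3r by 2.11 ± 0.59 and Camp from 9 to 83 summed counts. Camp passed the filter only through the LPS libraries, where it was high. S100a8, S100a9, Ngp and Ltf were at -0.30 to 0.35 and not called (adjusted p = 0.22 to 0.83). Cxcr2 fell in the same LPS libraries. Of 4 tested eosinophil markers 1 fell under LPS, Siglecf at -1.21 ± 0.13, and Epx, Prg2 and Ear6 were at 0.55 ± 0.85, 0.47 ± 0.58 and 0.08 ± 0.25 (adjusted p = 0.49 to 0.78). Lck, the one tested marker of 6 for T or NK cells, rose by 3.51 ± 0.35 under LPS (adjusted p = 5.5e-06) and by 1.79 ± 0.37 under IFN-β (adjusted p = 0.0026). Its counts summed to 40, 345 and 125 over the unstimulated, LPS and IFN-β libraries, in which Ccr4 rose under LPS. In the same order, the untested markers of that list summed to 3, 2 and 0 (Cd3e), 5, 2 and 4 (Cd3d) and 0, 2 and 4 (Trac). Ncr1 summed to 0, 2 and 0 counts and Klrb1c to 24, 6 and 3. The part of these markers in the receptor values was not tested.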

How the data were processed

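RNA from 9 DC libraries, 3 per group, had been rRNA-depleted and sequenced as pairs. The authors deposited raw counts per gene, made with STAR on mm10 (GRCm38), with no normalization. The methods and the submitters' processing notes name different STAR releases (2.7.8a in the notes, with Trim Galore 0.6.0). Gene models were taken from GENCODE M21, which holds 55144 of the 55471 identifiers. The members and lists were chosen with earlier results of these data known.

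Counts were filtered (filterByExpr), scaled by TMM and fitted over all 9 libraries with edgeR 4.0.16's quasi-likelihood test (R 4.3.3), with Benjamini-Hochberg adjustment over 16260 genes and a threshold of 0.05. SE is the absolute log2 fold change over the square root of F. The code was tested on simulated data. Levels between genes are CPM per kilobase of merged exons. Intervals are exact at 95% and cover counting error only. Nothing in the labels says that the lettered libraries were separate cultures or animals, so p-values measure the spread between these libraries. Libraries sharing a letter deviated together (r = 0.134 to 0.546 over 9 pairs), so the letters were also fitted as a block. Replicates differed beyond sampling noise in all 9 pairs. All receptors, tested family members and ligands, the 2 largest signalling changes each way, the chromosome 9 neighbours and the 2 nearest profiles per receptor were named, except that some planned genes are not reported here. A planned look at protein motifs was not used here. Alternatives were library size only, upper-quartile factors, DESeq2 1.42.0, an unfiltered table, a filter of 10 counts in each library, the 2 compared groups alone, stricter thresholds and leaving out each library, plus, chosen after seeing the data, leaving out all libraries of 1 letter.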

Additional observations from a re-analysis of the deposited data

Results flagged for a closer look

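Cmklr1, a signalling receptor for chemerin, was lower after LPS (-0.20 ± 0.07, adjusted p = 0.035) and higher after IFN-β (0.20 ± 0.07, adjusted p = 0.045), and the difference of the responses was 0.40 ± 0.07 (adjusted p = 0.0012, edgeR). Each letter showed both directions, with log2 ratios of -0.28 to -0.14 after LPS and 0.14 to 0.26 after IFN-β. Of 9 fits that left out 1 library, 5 kept the LPS call and 1 the IFN-β call. Scaled by library totals alone, the IFN-β value was -0.10 (adjusted p = 0.18). It was 0.13 with upper-quartile factors (adjusted p = 0.15) and 0.20 without a filter on low counts (adjusted p = 0.093). With DESeq2 the LPS value was -0.16 (adjusted p = 0.081). Leaving out the A, B or C libraries lost the IFN-β call (adjusted p = 0.061 to 0.21). Leaving out the B or C libraries also lost the LPS call (adjusted p = 0.14 and 0.17).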

How the results depend on the processing

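Across the alternatives each receptor called under LPS or in the contrast of the responses kept its direction and its call, and so did those called under IFN-β other than Ccr1 and Ccr7, except that Cxcr2, Cx3cr1 and the uncalled Ccr3 were not tested with at least 10 counts in every library, and that Ccr1 (0.60) lost its call in the contrast at a minimum log2 change of 1. Among the 8 receptors, that minimum left 2 called after IFN-β and 5 in the contrast. By library size only, Cxcr4 at -0.62 and Cx3cr1 at -1.02 were called after IFN-β and Cx3cr1 at 1.09 in the contrast of responses, where the compared groups alone gave 0.84. These values, none past the threshold as reported, changed sign: Ccr3 in the contrast of responses without the A libraries (0.024), Ccr2 after IFN-β leaving out 1 library (-0.15 to 0.10), Ccr4 after IFN-β (-0.32 to 0.32 leaving out 1 library, 0.008 without the A and 0.33 without the B libraries) and Ccr1l1 after IFN-β (-0.68 to 0.34 leaving out 1 library, 0.14 without the B libraries). By library size only, Cmklr1 after IFN-β, past the threshold as reported, was at -0.10. For the further receptors, 8 were called after LPS without a filter and 2 with at least 10 counts. In their contrast of responses 3 were called by library size only, 2 with at least 10 counts, 3 without the B libraries, 3 at an adjusted p under 0.01, 3 at the log2 minimum of 1, and 3 to 5 leaving out 1 library. Ligands called numbered 13 after IFN-β under the replicate block and 7 in the contrast without the B libraries. Signalling genes called at the log2 minimum of 1 numbered 11, 3 and 6 for LPS, IFN-β and the contrast, and 11 after IFN-β without the B libraries. The cause was not tested. The replicate block changed no call of the 8 receptors besides those given with Cxcr4 and Cx3cr1. The order of levels was the same by longest transcript and by library size only. Depth limits Ccr3, Cxcr2 and Cx3cr1, at 2 to 68 counts per library.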
